A study of Homo sapiens with 9 samples.

Results

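The direct contrast of 2 metabolic inhibitors, C75 against ETO, is described here across all genes, from 6 of the 9 RNA sequencing libraries of a study of definitive endoderm. The members were chosen by their labels: the 3 libraries labelled C75 and the 3 labelled ETO, with no library left out. The cells were HUES8, a line of human embryonic stem cells in long use, with wild-type genotype per the labels. All cells received the same differentiation medium, with activin A at 100 ng/mL, Wnt-3a at 50 ng/mL for the first 2 days and albumin free of fatty acids at 0.2%. The C75 group also received C75, which inhibits fatty acid synthase. The ETO group received ETO, an inhibitor of fatty acid oxidation, read here as etomoxir. The remaining 3 libraries, labelled DE, had the same medium without an inhibitor; their levels are given for reference, and they entered 1 alternative fit and no other test. The labels state neither dose nor time of the inhibitors and no exact day of harvest, and nothing in them tells whether replicates were grown as separate cultures. P-values therefore measure the spread between these libraries only, and that spread may be technical.

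Definitive endoderm forms when pluripotent cells respond to NODAL or activin together with WNT, pass through a streak-like state marked by TBXT and MIXL1, and switch on EOMES, SOX17, FOXA2 and the GATA factors while POU5F1, NANOG and SOX2 are switched off. Fatty acid synthase builds palmitate from malonyl-CoA in the cytosol. Oxidation of long-chain fatty acids begins with carnitine palmitoyltransferase 1, the enzyme that etomoxir blocks, which loads acyl chains onto carnitine for entry into mitochondria. The contrast thus sets block of the building of fatty acids beside block of their burning, in cells on the same differentiation schedule.

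Library totals ran from 18320778 to 18895819 counts in C75 and from 17743968 to 21510997 in ETO. The first principal component of the 6 libraries held 93.0% of the variance of log2 CPM (counts scaled to a fixed library total) and set all C75 libraries (66.2 to 67.1) apart from all ETO libraries (−67.2 to −66.4). Fewer genes had at least 1 count in C75 (15948 to 15965) than in ETO (16295 to 16472). Cytosolic ribosomal protein genes took 3.96 ± 0.0753% of counts in C75 against 5.17 ± 0.0522% in ETO, and mitochondrial-encoded genes 3.42 ± 0.148% against 4.36 ± 0.107% (SD, n = 3 each). The groups did not overlap in either share, and the two-sided exact permutation p of each was 0.1, the smallest that 3 against 3 libraries allow. Because these are bulk samples, fewer cells of a type and less RNA per cell cannot be told apart in any result below.

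Most of the measured transcriptome differed between the inhibitors. Of 14033 genes tested, edgeR's quasi-likelihood test called 11197 at a Benjamini-Hochberg adjusted p under 0.05, a background of 79.8%; 5563 (39.6%) were higher in C75 and 5634 (40.1%) were lower. The 3 libraries of each group did not overlap for 80.4% of genes. Against so wide a background, a call for a single gene carries little, so sizes of difference are given throughout. The balance of directions held for small differences and not for large ones. At least a 2-fold difference was called for 1198 genes higher in C75 (8.54% of those tested) and 2095 lower (14.9%), at least 4-fold for 280 and 893, and at least 20-fold for 21 and 198, by the fitted fold. Fitted folds have no reliable size for genes near the floor, and without the genes with at most 3 counts in the C75 or the ETO libraries together the tallies were 1190 and 2009, 272 and 807, and 14 and 125. The excess of differences of at least 2-fold on the lower side ran through the levels up to 100 CPM: 109 higher and 354 lower of 826 genes with a mean below 1 CPM, 285 and 656 of 2102 genes from 1 to 5 CPM, 269 and 539 of 3047 from 5 to 20 CPM, and 363 and 429 of 5779 from 20 to 100 CPM. Of 2279 genes at 100 CPM or more, 172 were higher and 117 lower. Genes with low means pass the filter largely through the group where they are high. Across genes tested, 32 had no count in the C75 libraries together and 3 had none in ETO. Of 409 genes followed through the alternative settings, 20 share over 20% of their exonic bases with a gene on the other strand, so that, with strand use in counting not given, their reads may be mixed. Those named below include NODAL (41.2%), CDK4 (43.2%), VIL1 (44.0%), DDIT4 (41.2%), DUSP6 (40.5%), FOXH1 (31.6%) and VIM (24.4%). The median absolute log2 fold change over all genes tested was 0.48, and the median signed value was −0.0012. For 1823 genes (13.0%) the 95% interval of the log2 fold change lay within −0.25 to 0.25.

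**Figure D1:**
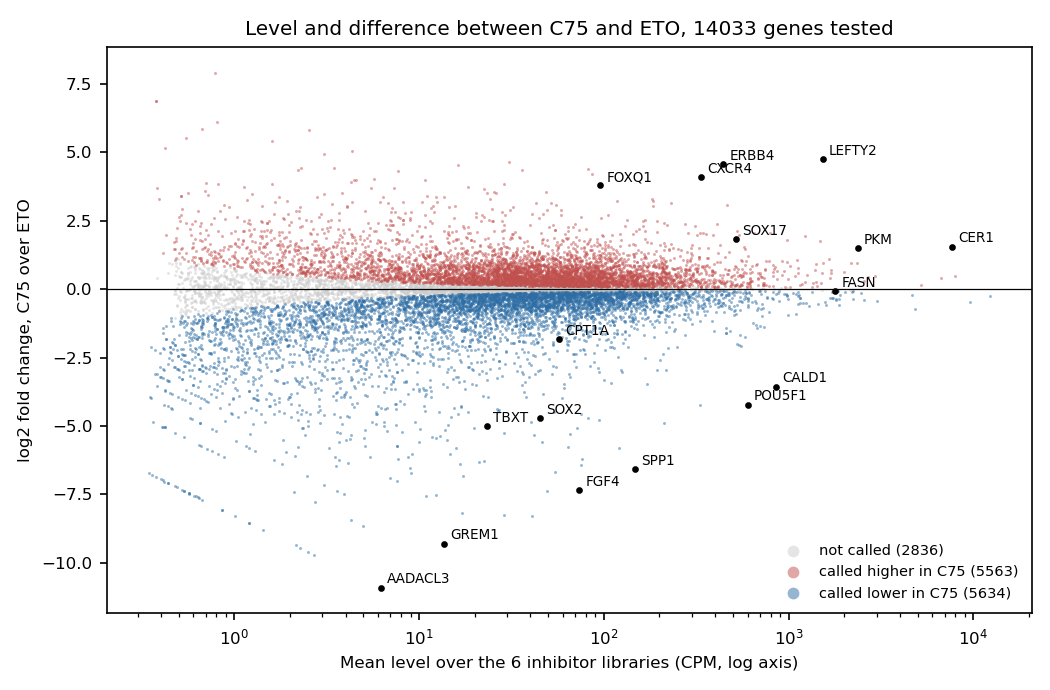
Each point is one of 14033 genes tested, with its mean level over the 6 inhibitor libraries on a log axis in CPM and its log2 fold change, C75 over ETO. Red points (5563) were called higher in C75, blue points (5634) lower and grey points (2836) neither; the downward tail below −4 holds many more points than the upward one. Fitted values of genes with almost no counts in one group depend on the fit's prior count.

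The genes whose products the 2 inhibitors are known to bind differed little in the case of FASN and strongly in the case of CPT1A. FASN, which encodes fatty acid synthase, was at 1780.4, 1652 and 1808 CPM in C75 and 1845, 1744 and 1867 CPM in ETO (chromosome 17 at 82078333 to 82098332 of GRCh38, ENSG00000169710.8). The 2 groups overlapped. The log2 fold change was −0.07 (SE 0.0294, edgeR adjusted p = 0.027), a call lost in the fit of all 9 libraries (adjusted p = 0.088) and without C75 replicate 2 (log2 fold change −0.029, adjusted p = 0.29) or without ETO replicate 1 or 3 (adjusted p = 0.11 and 0.12). CPT1A, the liver form of carnitine palmitoyltransferase 1, was at 24.2, 26.9 and 24.6 CPM in C75 against 90.5, 86.0 and 92.5 CPM in ETO (chromosome 11 at 68754620 to 68844410, ENSG00000110090.12). All ETO libraries were above all C75 libraries, a log2 fold change of −1.84 (95% interval −1.95 to −1.73, adjusted p = 7.6e-26), with DE between them at 39.9 ± 2.76 CPM. The other forms differed less: the muscle form CPT1B was 1.76-fold higher in C75, and CPT1C, the brain form, was at a log2 fold change of −0.18 (adjusted p = 0.043), a call lost in 7 of 13 alternatives. Per length, in TPM (a CPM-like value corrected for gene length), the mean levels of CPT1A, CPT1B and CPT1C were 14.2, 2.60 and 10.2 in C75 and 54.3, 1.58 and 12.4 in ETO. CPT1A was the most abundant of the 3 in both groups, and its margin over CPT1C was the narrower in C75.

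Transcription factors of the endoderm were higher in C75 as a group. Of 15 members tested, 13 were called higher (against 39.6% of all genes tested), none lower and 2 neither, with 11 at least 2-fold higher and a median log2 fold change of 1.58. HHEX, a homeobox factor of anterior endoderm and liver bud, differed most, at 98.9, 103 and 109 CPM in C75 and 14.5, 14.0 and 13.0 CPM in ETO (chromosome 10 at 92689951 to 92695646). This was 7.39-fold (adjusted p = 2.4e-30), with no overlap and with DE at 42.4 ± 1.501 CPM. FOXA1, a pioneer factor, was low in both groups but 5.19-fold higher in C75 (2.03 ± 0.341 against 0.388 ± 0.241 CPM). GATA4, a zinc finger factor of endoderm and heart, was at 561, 527 and 588 CPM in C75 and 134, 128 and 138 CPM in ETO. OTX2, of the anterior endoderm and head, was at 579.9, 574 and 575 CPM and 141, 142 and 139 CPM. GATA4 was 4.15-fold and OTX2 4.07-fold higher in C75, and in neither did the groups overlap. SOX17, the defining factor of the layer, was 3.58-fold higher in C75, FOXA2 3.96-fold and GATA6 3.92-fold. Mean levels of SOX17 were 815 CPM in C75, 761 in DE and 226 in ETO. FOXA2 was at 176, 145 and 44.1 CPM in the same order, and GATA6 at 861, 542 and 218 CPM. The smallest difference called was that of EOMES, which acts early and opens endoderm genes, at 1.43-fold. MIXL1, a streak homeobox factor, was at 743, 715 and 768 CPM in C75 and 723, 692 and 718 CPM in ETO, with overlap (log2 fold change 0.05, 95% interval −0.01 to 0.11, adjusted p = 0.11). MIXL1 passed without C75 replicate 2 (log2 fold change 0.079, adjusted p = 0.0079) and in a fit blocked on replicate number (adjusted p = 0.047). KLF5 was not called (−0.06, 95% interval −0.20 to 0.07), and SOX7, with 20 counts in C75 and 44 in ETO, was too low to test.

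Secreted and surface markers of the layer followed with 10 of 12 members higher and 2 lower. CXCR4, the chemokine receptor used to sort endoderm, was at 615, 633 and 650.0 CPM in C75 against 37.9, 35.4 and 37.1 CPM in ETO, 17.0-fold apart. LGR5, a receptor for R-spondins, was at 182, 184 and 183 CPM against 25.2, 29.9 and 29.1 CPM, 6.49-fold. FGF17 and SHISA2, a ligand and an inhibitor of FGF and WNT receptor maturation, were 3.35-fold and 3.03-fold higher. The 2 members that went the other way were low in all libraries: CD177 (2.66 ± 0.429 against 5.97 ± 0.0923 CPM) and the apelin receptor APLNR (4.78 ± 0.101 against 8.87 ± 0.679 CPM). The APLNR ligand gene APELA, singled out after its values were seen, had 0 counts over the 3 C75 libraries and 272 over the 3 ETO libraries, at least 81.6-fold lower in C75 against a floor of 3 counts over the group.

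In the NODAL pathway the largest differences were those of LEFTY2, LEFTY1 and CER1, secreted antagonists that the pathway itself induces. Of 17 members tested, 13 were higher and 4 lower in C75, with a median of 0.43. NODAL was at 389, 395 and 399.7 CPM in C75 and 183, 189 and 191 CPM in ETO, 2.09-fold apart. Of the feedback antagonists, LEFTY2 was at 2973, 2912 and 2975 CPM against 110.0, 106 and 109 CPM (27.0-fold, chromosome 1 at 225936598 to 225941489). This was the largest fold higher in C75 among the genes ranked, which were named genes called without overlap at a mean of 5 CPM or more. LEFTY1 differed 8.50-fold and CER1 2.94-fold. CER1 was also the gene with the largest difference in level, at 11618, 11275 and 11326 CPM in C75 and 3814, 3938 and 3785 CPM in ETO. Reads of LEFTY1 and LEFTY2 are uncertain to the extent that these near-identical neighbours share them. Among the signal transducers, SMAD2 was 2.43-fold higher in C75 and SMAD3 1.32-fold, whereas the shared partner SMAD4 was lower (−0.36 on the log2 scale). The type I receptor gene ACVR1B was higher (0.34) and the type II receptor gene ACVR2B lower (−0.37). The co-receptor TDGF1 and the DNA-binding partner FOXH1 were higher by 1.29-fold and 1.56-fold, and the ligand gene GDF3 was lower (−0.49).

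Pluripotency genes were mostly lower in C75, with 18 of 22 called lower (beside 40.1% of all genes tested) and 4 called higher (median −1.18). At least 2-fold lower were 13 of the 22, beside 14.9% of all genes, and 1 was at least 2-fold higher. UTF1, a chromatin factor of pluripotent cells, had 11 counts in C75 and 917 in ETO, a ratio of 75.05 (95% counting interval 41.8 to 151). USP44, a deubiquitinase, was at 3.10, 3.36 and 1.92 CPM in C75 against 42.2, 42.7 and 40.7 CPM in ETO (15.1-fold). The core factors POU5F1, SOX2 and NANOG were 18.6-fold, 25.9-fold and 6.12-fold lower. The 4 members that went the other way were LIN28A, L1TD1, TDGF1 and SALL4. DNMT3B, the de novo DNA methyltransferase, was lower by 1.86-fold only and PODXL by 1.17-fold. LIN28A, an RNA-binding protein, was at 1351 ± 25.2 against 1110.4 ± 22.0 CPM. SALL4, a zinc finger factor, was higher by 2.02-fold, at 396, 388 and 392 CPM against 199, 180.0 and 199 CPM, and DE lay between at 322 ± 7.53 CPM. The summed level of the tested members ran from 5443 to 5561 CPM in C75 and from 7121 to 7210.0 CPM in ETO. The part of remaining pluripotent cells in the other results was not tested.

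**Figure D2:**
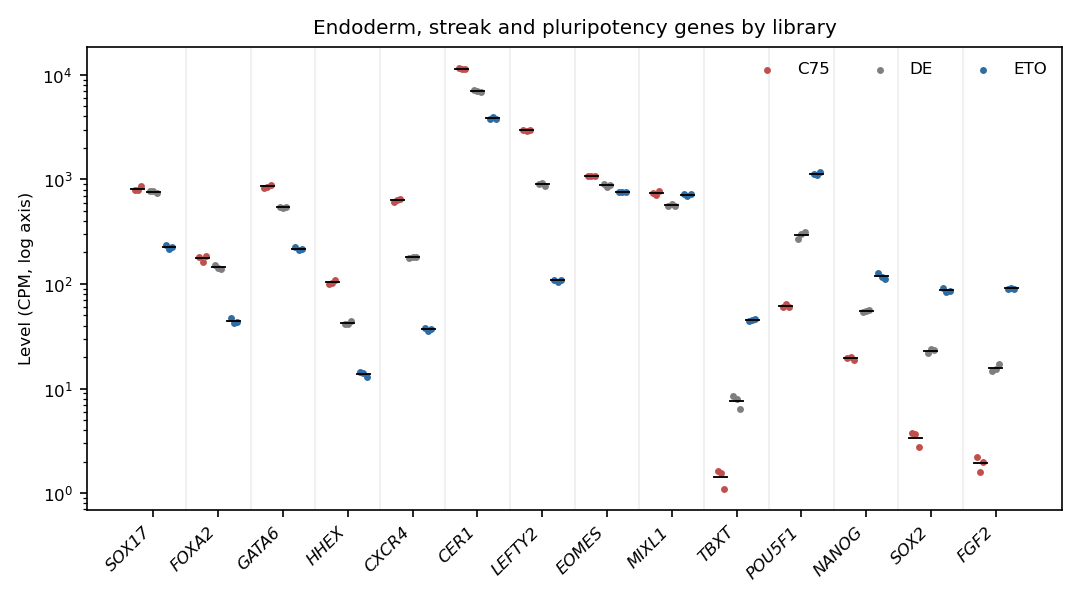
Levels of 14 stage genes in every library, in CPM on a log axis; points are single libraries (C75 red, DE grey, ETO blue) and black bars are group means. HHEX, CXCR4 and LEFTY2 stand high in C75, POU5F1, SOX2 and FGF2 stand high in ETO, and MIXL1 overlaps between C75 and ETO.

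Genes of the primitive streak and mesoderm were lower in C75 for 12 of 17 tested, higher for 1 and not called for 4. At least 2-fold lower were 10 of them. Over all genes tested 40.1% were called lower and 14.9% at least 2-fold lower. TBXT, the brachyury gene, was at 1.63, 1.54 and 1.10 CPM in C75 and 44.0, 45.2 and 46.5 CPM in ETO, 31.9-fold apart. KDR, a VEGF receptor of mesodermal progenitors, was at 58.1, 56.3 and 59.5 CPM against 339.9, 354 and 346 CPM (6.03-fold), and EVX1, a posterior streak factor, was 4.67-fold lower. TWIST1 and GATA2 were near the detection limit in C75, at 0.482 and 0.203 CPM, against 8.70 and 3.31 CPM in ETO. SNAI1 was not called (95% interval of the log2 fold change −0.27 to 0.06). ISL1 alone was higher in C75, at 4.89 ± 0.601 against 2.47 ± 0.338 CPM. MSGN1 and MEOX1, which mark presomitic and somitic mesoderm, had no counts in either group.

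Markers of other lineages were split. Ectoderm and neural genes had 7 higher and 9 lower of 17 tested: NES, a filament gene of neural progenitors, was at 261, 267 and 251 CPM in C75 and 816, 842 and 826 CPM in ETO, and MAP2 and SOX3 had 6 and 10 counts in C75 against 824 and 501 in ETO. PAX6, in contrast, was 7.56-fold higher in C75 (46.7, 42.0 and 43.6 against 5.72, 5.67 and 5.94 CPM) and SOX10 4.52-fold, both transcription factors of neural or neural crest cells; 26.1% of the exonic bases of PAX6 overlap genes on the other strand. SIX6 had no counts. Genes of liver, gut, pancreas and visceral endoderm had 6 higher and 5 lower of 12 tested. SOX21, a SOX family factor, was 20.2-fold higher in C75, and HNF4A, the hepatic nuclear receptor, was at 15.7, 15.9 and 14.3 CPM against 2.77, 2.96 and 2.04 CPM. APOA2 and VIL1 were 6.78-fold and 4.88-fold higher. AFP, which encodes alpha-fetoprotein, had 0 counts in C75 and 104 in ETO, at least 31.2-fold lower, and SOX9 was lower by a log2 fold change of −3.32. ALB, TTR, PDX1 and FGB were too low to test, with 8 counts or fewer in each group. Trophoblast and amnion genes had 6 lower and 1 higher of 7 tested, with IGFBP3 at 3.10 and 28.6 CPM, and CGA and CGB5 at 0. Of endothelial, blood and fibroblast markers 7 of 19 could be tested, 6 lower and COL1A1 higher; COL1A2 was at 44.7, 45.4 and 44.3 CPM in C75 and 343, 344 and 341 CPM in ETO, while COL1A1 was 1.69-fold higher in C75, and DCN and HBZ had no counts. Of germ cell markers 4 of 10 could be tested, 2 in each direction; DDX4 had no counts.

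**Figure D3:**
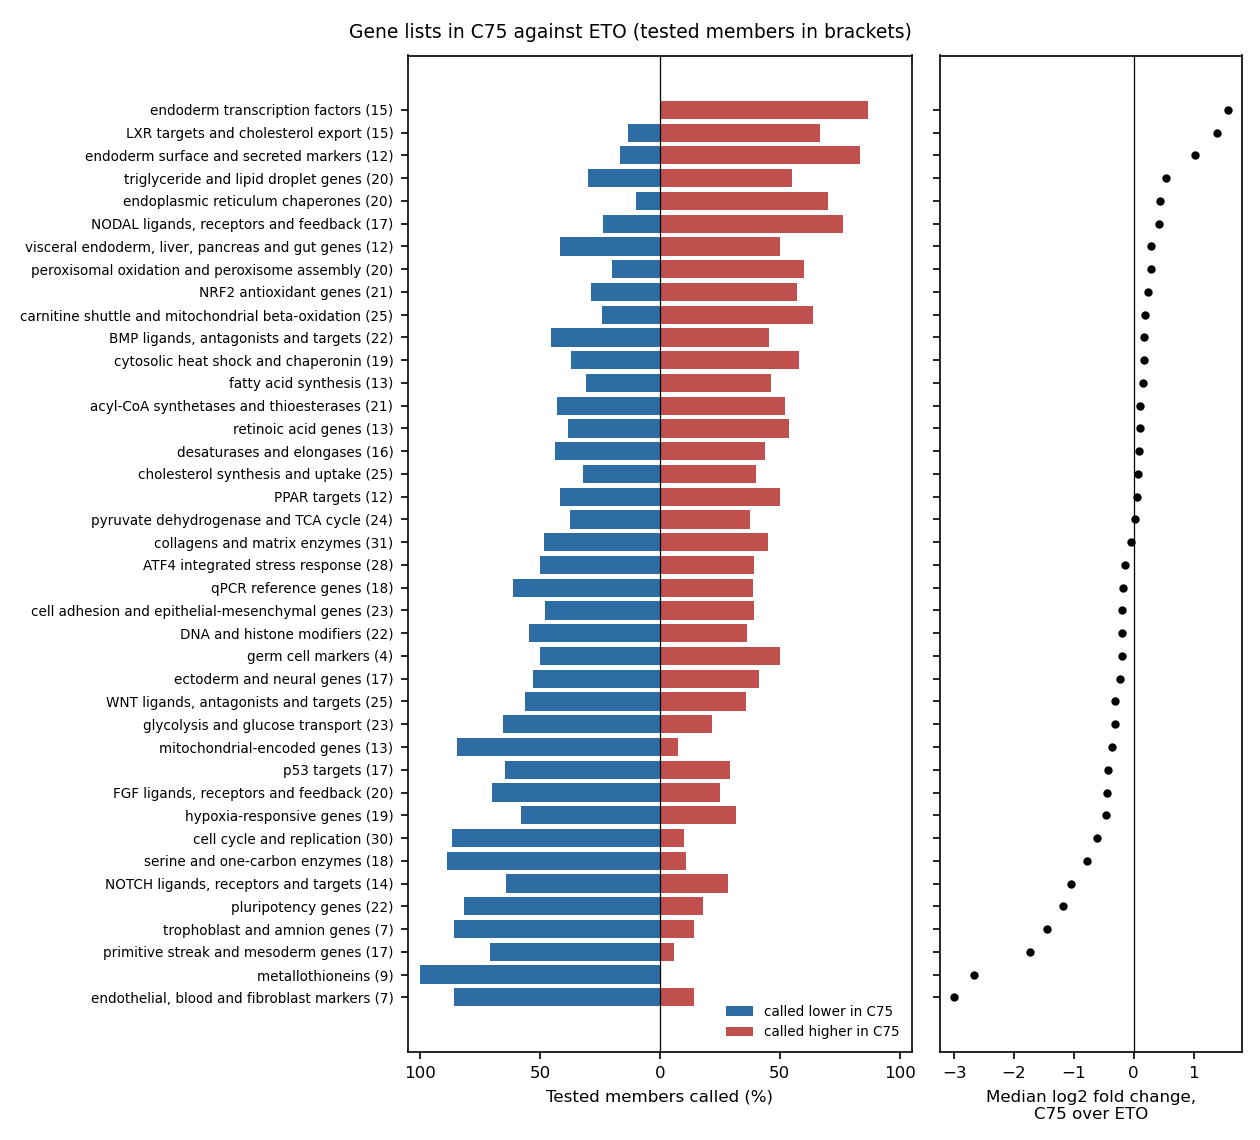
For 40 gene lists, the left panel gives the percent of tested members called higher (red, to the right) or lower (blue, to the left) in C75 against ETO, and the right panel the median log2 fold change of the tested members (number in brackets). Over all genes 39.6% were called higher and 40.1% lower, so that long bars on one side, as for endoderm transcription factors and metallothioneins, are to be read against those shares.

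Signalling genes outside NODAL also differed. FGF4, a ligand, had 49 counts in C75 and 8816 in ETO (1.01, 0.660 and 1.04 against 153, 139 and 147 CPM), and FGF2 was at 2.197, 1.595 and 1.98 CPM against 90.1, 92.4 and 89.1 CPM. FGF19 was 15.2-fold lower in C75. In all, 14 of 20 FGF pathway members were lower and 5 higher. The phosphatase genes that restrain ERK went apart, DUSP6 2.02-fold lower and DUSP4 4.13-fold higher (539.9, 526 and 528 against 128, 127 and 128 CPM). In the WNT list 14 of 25 were lower and 9 higher. The antagonist gene DKK4 was at 3.89, 4.07 and 4.34 CPM in C75 and 143, 137 and 135 CPM in ETO, and SFRP2 23.8-fold lower, whereas SFRP1 and DKK1 were 2.92-fold and 1.67-fold higher. Receptor genes FZD5, FZD7 and FZD8 were all higher, FZD8 at 315, 298 and 327 CPM against 74.3, 67.8 and 76.8 CPM. AXIN2, a common readout of WNT signalling, was 1.76-fold higher in C75 and SP5, another target, 1.68-fold lower.

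The BMP list was split evenly, with 10 of 22 higher and 10 lower, and its antagonists did not move together. GREM1, a secreted antagonist on chromosome 15 at 32717974 to 32745107, had 2 counts in C75 and 1627 in ETO, a ratio of 732 (counting interval 202 to 6053). BMPER, CHRD and FST, also extracellular modulators of BMP or activin, were higher in C75 by 7.09-fold, 4.06-fold and 2.69-fold. All 4 ID genes, direct BMP targets, were lower: ID1 was at 33.6, 30.7 and 38.0 CPM in C75 and 128, 121 and 127 CPM in ETO, and ID2, ID3 and ID4 were 2.70-fold, 2.67-fold and 3.40-fold lower. The ligand genes BMP2 and BMP7 were higher (0.60 and 0.40 on the log2 scale) and BMP4 lower (−0.33). In the NOTCH list 9 of 14 were lower, with the ligand JAG1 at 4.17, 6.44 and 4.72 CPM against 32.4, 34.3 and 33.0 CPM and the target HES1 3.202-fold lower, while NOTCH3 and JAG2 were 1.82-fold and 2.01-fold higher. Among retinoic acid genes CYP26A1, which degrades the ligand, was at 1496, 1513 and 1557 CPM in C75 and 443, 424 and 438 CPM in ETO; the binding protein CRABP1 was 4.36-fold lower, with 47.2% of its exonic bases overlapping a transcript on the other strand.

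The 15 genes with the largest differences in each direction, among those ranked at 5 CPM or more, reached larger folds on the lower side. AADACL3 had 0 counts in C75 and 754 in ETO, at least 226-fold fewer. OLFML3, VAT1L, HDAC9 and HPGD had 10, 6, 6 and 7 counts in C75, with ratios of 312, 308, 195 and 191. ANXA1, an annexin, was at 0.338, 0.880 and 0.549 CPM in C75 and 98.3, 97.2 and 97.3 CPM in ETO. SPP1, encoding osteopontin, was at 2.99, 3.795 and 2.47 CPM against 293, 297 and 287 CPM, 95.4-fold apart, and CAVIN1, a coat protein of caveolae, was 103-fold lower. VSNL1, MAP2, VGLL3, COL12A1 and FGF4 were also on this side. DE lay between the inhibitors, at 48.5 ± 4.98 CPM for SPP1 and 16.8 ± 2.07 CPM for ANXA1.

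The 15 genes at the other end differed by at most 27.0-fold, the value of LEFTY2. ERBB4, a receptor of neuregulins on chromosome 2 at 211375717 to 212538841, was at 858, 869.8 and 826 CPM in C75 and 35.0, 37.8 and 33.3 CPM in ETO, 23.8-fold apart. PLCXD3 and ACSM4 were 25.1-fold and 23.4-fold higher in C75. VWF, best known from endothelium, was at 168, 161 and 161 CPM against 8.58, 8.48 and 9.30 CPM. The endothelial genes PECAM1, CDH5 and TIE1, too low to test, had 9 counts or fewer in C75 and 20 or fewer in ETO. Of the endothelial, blood and fibroblast markers that could be tested, 6 of 7 were lower in C75, opposite to VWF. FOXQ1, a forkhead factor, was at 172, 177 and 186 CPM against 14.8, 11.3 and 12.2 CPM, with DE near ETO at 13.5 ± 1.21 CPM. TMOD1, RNASE1, ADCY10, CERKL, ADRA2A and NKX2-1 were 20.9-fold, 20.1-fold, 16.4-fold, 15.7-fold, 13.1-fold and 13.1-fold higher; 45.01% of the exonic bases of TMOD1 overlap TSTD2 on the other strand. The actin-binding gene CALD1, chosen after values were seen, was at 136, 136 and 133 CPM in C75 and 1547, 1633 and 1559 CPM in ETO.

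Enzymes of fatty acid synthesis showed no common direction, with 6 of 13 higher in C75, 4 lower and 3 not called (median 0.16). SREBF1, which encodes the lipogenic transcription factor SREBP1, was at 222, 199 and 224 CPM in C75 and 85.5, 81.2 and 86.6 CPM in ETO (2.52-fold). ACACA, the cytosolic acetyl-CoA carboxylase that makes malonyl-CoA, was lower by 1.41-fold, and ACACB, the mitochondrial form, by 2.16-fold. MCAT, of mitochondrial fatty acid synthesis, was 1.76-fold higher. Elongases went apart: ELOVL2, which extends polyunsaturated chains, was at 276, 276 and 274 CPM in C75 and 49.0, 51.0 and 47.4 CPM in ETO, while ELOVL6, which extends palmitate, was 2.02-fold lower and ELOVL7 3.96-fold lower. Among desaturases SCD was lower (−0.33) and FADS2 higher (0.45).

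Enzymes of fatty acid oxidation were mostly somewhat higher in C75, with CPT1A as the largest exception. Of 25 genes of the carnitine shuttle and mitochondrial oxidation, 16 were higher, 6 lower and 3 not called, with a median log2 fold change of 0.19. Over all genes tested 39.6% were called higher and 40.1% lower. The median absolute log2 fold change of these 25 was 0.50, near the 0.48 of all genes. At least 2-fold differences were called for 1 higher and 2 lower of these 25, CPT1A among the lower ones. The shares over all genes were 8.54% and 14.9%. ACADVL, the very long-chain dehydrogenase, was at 274, 269 and 282 CPM against 140.4, 141 and 138 CPM (1.95-fold), and ECHS1, the short-chain hydratase, was 1.82-fold higher. CPT2 and SLC25A20, the next steps of the shuttle after CPT1A, were 1.43-fold and 1.28-fold higher. HADH and ETFDH were lower (−0.75 and −0.71). HADHA, of the trifunctional protein, differed by 0.08 only, and its call was lost without C75 replicate 2, ETO replicate 1 or ETO replicate 3 (adjusted p = 0.11, 0.10 and 0.11) and with upper-quartile scaling (log2 fold change 0.023, adjusted p = 0.52). Of the peroxisomal genes tested, 12 of 20 were higher, 4 lower and 4 not called. ACOX3, an acyl-CoA oxidase for branched chains, was at 320.5, 329 and 337 CPM in C75 and 53.9, 59.9 and 62.6 CPM in ETO, 5.55-fold apart. EHHADH, the bifunctional enzyme, was 4.37-fold higher. Peroxins, which assemble the organelle, went both ways: PEX3 was lower (−0.63) and PEX5 higher (0.50).

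Genes that activate, store and sense fatty acids also split by member. ACSL1, the long-chain acyl-CoA synthetase tied to oxidation, was at 30.1, 28.4 and 30.1 CPM in C75 and 8.13, 8.08 and 9.35 CPM in ETO, whereas ACSL4, which prefers arachidonate, was at 34.8, 35.4 and 31.5 CPM against 96.4, 96.6 and 93.6 CPM and ACSL3 was 1.78-fold lower. SLC27A1 and SLC27A2, transport proteins with synthetase activity, were 2.56-fold and 5.75-fold higher. Of 20 triglyceride and droplet genes 11 were higher, among them AGPAT3, AGPAT2 and DGAT2 (2.39-fold, 2.16-fold and 2.15-fold), 6 lower and 3 not called; PLIN2, the main droplet coat gene, was not called (95% interval −0.16 to 0.09). PPAR coactivators went opposite ways: PPARGC1A was at 12.8, 10.5 and 9.99 CPM in C75 and 1.45, 0.953 and 1.16 CPM in ETO, and PPARGC1B at 1.24, 0.660 and 0.824 CPM and 8.67, 9.99 and 7.65 CPM. Of PPAR targets, CPT1A was lower and UCP2 2.91-fold higher, and FABP1 and CREB3L3 had 1 count or none in each group.

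**Figure D4:**
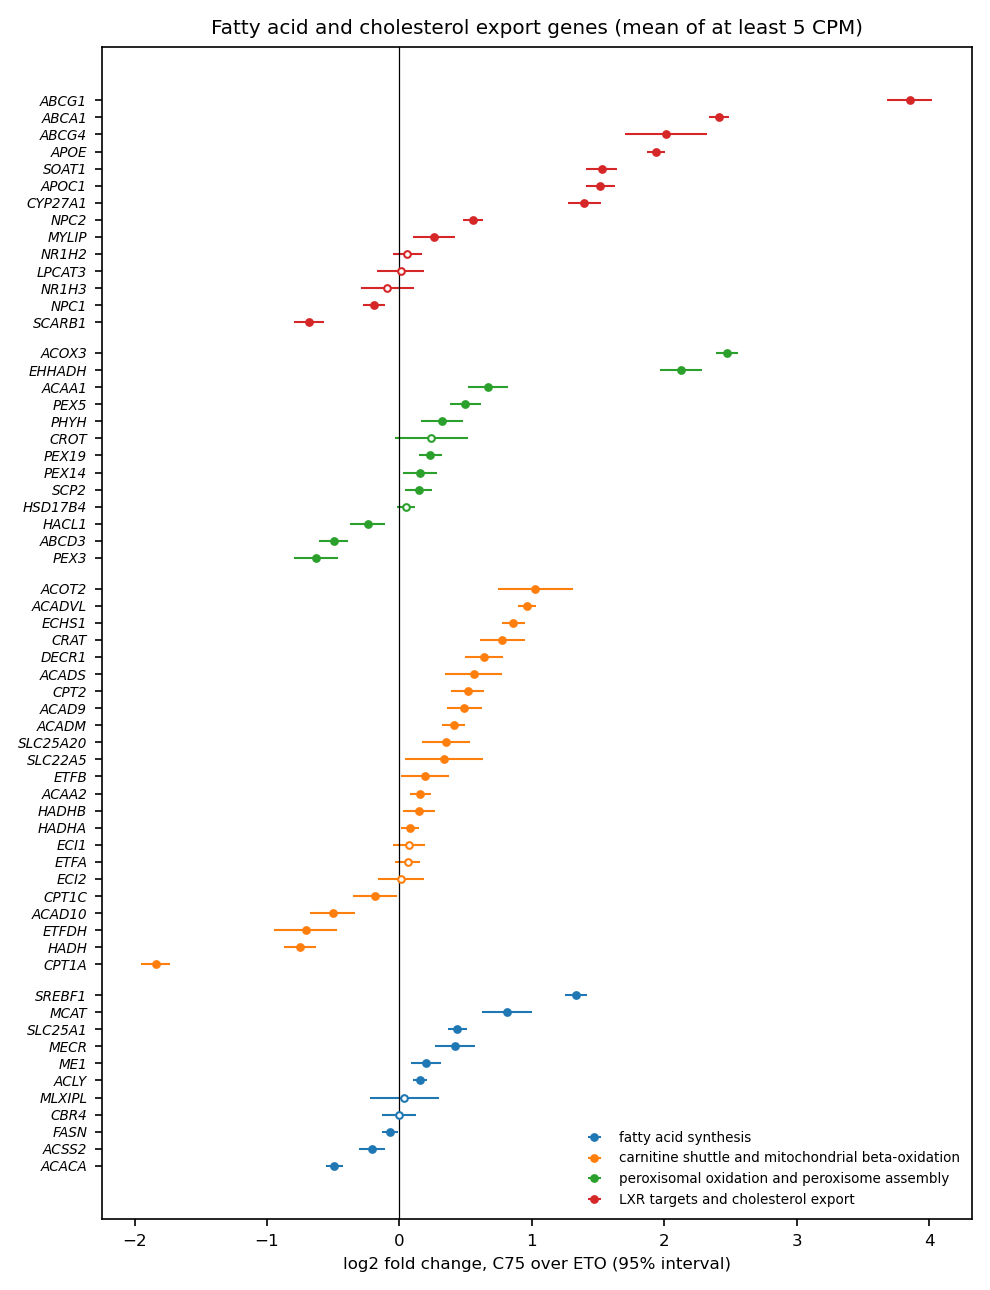
log2 fold change, C75 over ETO, with its 95% interval for genes of fatty acid synthesis, carnitine shuttle and mitochondrial oxidation, peroxisomal oxidation and cholesterol export with a mean of at least 5 CPM, some members left out; filled symbols passed the adjusted p of 0.05 and open ones did not. CPT1A is the farthest to the left, and ABCG1, ACOX3 and ABCA1 are the farthest to the right.

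Cholesterol export genes were higher in C75 while synthesis genes were near balance. Of 25 synthesis and uptake genes 10 were higher, 8 lower and 7 not called, with a median of 0.07. TM7SF2 and NSDHL, of the later sterol steps, were 3.58-fold and 2.25-fold higher. The sterol carrier gene STARD4 was lower (−0.61), and IDI1 was not called (95% interval −0.09 to 0.05). Of 15 LXR targets and export genes 10 were higher, 8 of them at least 2-fold, and 2 lower (median 1.40). ABCG1, an exporter to HDL, was at 52.4, 53.8 and 55.5 CPM in C75 and 3.68, 3.96 and 3.41 CPM in ETO. ABCA1, the exporter to lipid-poor apolipoprotein, was at 362, 354 and 352 CPM against 69.0, 65.7 and 63.6 CPM, and APOE at 1962, 1942 and 1973 CPM against 520.1, 468 and 532 CPM. The groups did not overlap for any of these 3. The receptor genes themselves, NR1H2 and NR1H3, were not called (95% intervals −0.05 to 0.17 and −0.29 to 0.11), and SCARB1, the HDL receptor, was lower (−0.68).

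Glycolysis genes were mostly lower in C75, with PKM as the largest exception. Of 23 tested 15 were lower (beside 40.1% of all genes tested), 5 higher and 3 not called. The summed level of the tested members was higher in C75, at 13820 to 14010 CPM against 12030 to 12090 CPM in ETO. PKM alone differed by 2273 CPM between the group means, more than these sums differ. The glucose transporter SLC2A1 was at 68.3, 64.0 and 65.5 CPM in C75 and 214, 199.7 and 206 CPM in ETO, and hexokinases HK1 and HK2 were 3.18-fold and 3.41-fold lower. SLC2A3, another transporter, was higher in C75 (0.31); per length it was the more abundant transporter in both groups, at 1691 TPM against 51.3 TPM of SLC2A1 in C75 and 1458 against 174 TPM in ETO. GAPDH, ENO1 and TPI1 had log2 fold changes of −0.08, −0.03 and 0.03, the latter pair not called. PKM, pyruvate kinase, was at 3466, 3477 and 3546 CPM in C75 and 1225, 1210.1 and 1235 CPM in ETO, 2.83-fold higher. PDK1, a kinase that turns off pyruvate dehydrogenase, was at 14.8, 11.7 and 14.1 CPM against 116, 118 and 111 CPM, 8.59-fold lower, and PDHA1, the subunit it phosphorylates, was 1.89-fold higher (21.3% of its exonic bases overlap MAP3K15 on the other strand). Over the whole list of pyruvate dehydrogenase and citric acid cycle genes 9 were higher, 9 lower and 6 not called of 24. Hypoxia-responsive genes had 6 higher and 11 lower of 19: STC2, LOXL2 and DDIT4 were 11.3-fold, 4.68-fold and 2.60-fold lower, LOX and VEGFA 3.54-fold and 1.48-fold higher.

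Genes of the integrated stress response went both ways: of the 28 tested members of the list, 14 were lower in C75, 11 higher and 3 not called, with a median log2 fold change of −0.15. At least 2-fold differences were called for 10 lower members and 1 higher. ATF4 is the transcription factor of this response, and binds composite elements with C/EBP partners in genes such as ASNS, which encodes asparagine synthetase. A match at the 5′ end of ASNS, upstream of the RefSeq start and inside the gene span of GENCODE 29, is shown in 30 bases on GRCh38.p14 at chr7:97872458-97872487, minus strand, from RefSeq, with the 8 letters TGATGNAA searched on both strands in capitals.
ASNS: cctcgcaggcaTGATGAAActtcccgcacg
These letters were present in the 250 bases upstream of 1.40% of 11046 promoters of tested genes, and of 3 of 20 matched members of the list (ASNS, CHAC1 and ATF3), of which ATF3 was higher in C75. ASNS was at 25.3, 29.2 and 27.8 CPM in C75 and 222, 230.2 and 217 CPM in ETO, 8.20-fold apart (adjusted p = 6.0e-34). The serine synthesis genes PHGDH and PSAT1 were 5.20-fold and 4.39-fold lower, and GDF15, a stress-induced cytokine, was at 0.507, 0.605 and 0.165 CPM against 12.1, 11.8 and 13.6 CPM. Of 18 serine and one-carbon enzymes 16 were lower, 8 of them at least 2-fold, and 2 higher, among them MAT2A (1.26-fold). ALDH1L2, MTHFD2 and SHMT2, the mitochondrial arm, were 15.4-fold, 3.09-fold and 2.18-fold lower. Exonic overlap with genes on the other strand is 33.2% for MTHFD2, 31.6% for DDIT3 and 21.2% for ATF5. Among the members higher in C75, DDIT3 (CHOP) and ATF5 were 2.05-fold and 1.99-fold higher in C75, ATF4 was higher by 0.11 on the log2 scale, a call lost with upper-quartile scaling (0.055, adjusted p = 0.070), and the amino acid transporter SLC7A5 was 1.49-fold higher.

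Metallothioneins, small cysteine-rich proteins that bind zinc and copper, were lower in C75 for every member tested. Their transcription is driven by MTF1 through metal response elements, and the upstream sequences of 2 of them are shown because the core letters of such elements occur there in several copies. The capitals mark the core letters TGCACNC or TGCGCNC on either strand; sequences run 5′ to 3′ on the plus strand and come from RefSeq on GRCh38.p14, MT1X at chr16:56682220-56682423 and MT1H at chr16:56669564-56669813.
MT1X: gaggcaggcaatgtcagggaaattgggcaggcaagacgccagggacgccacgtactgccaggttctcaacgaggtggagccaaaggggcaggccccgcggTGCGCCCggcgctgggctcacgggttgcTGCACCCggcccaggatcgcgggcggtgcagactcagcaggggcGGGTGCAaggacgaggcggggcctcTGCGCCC
MT1H: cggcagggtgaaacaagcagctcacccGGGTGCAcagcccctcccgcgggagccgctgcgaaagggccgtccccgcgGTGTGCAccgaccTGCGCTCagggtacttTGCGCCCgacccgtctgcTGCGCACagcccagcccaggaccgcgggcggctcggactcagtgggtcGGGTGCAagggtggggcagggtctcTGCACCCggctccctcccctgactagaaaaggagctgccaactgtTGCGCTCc
In the 250 bases upstream of the start, MT1X held 4 matches, MT1H 8 and MT2A 7, SLC30A1 held 1 and MTF1 none, whereas at least 1 was found in 33.6% and at least 2 in 9.78% of 11046 promoters. MT1X was at 0.620, 0.330 and 0.439 CPM in C75 and 15.3, 14.1 and 14.4 CPM in ETO. MT2A was at 1.58, 1.87 and 1.37 CPM against 18.1, 20.3 and 19.8 CPM, and MT1H at 0.394, 0.110 and 0.659 CPM against 1.91, 1.86 and 2.15 CPM. The groups were far apart in each, with MT1X 31.5-fold and MT2A 12.1-fold lower in C75. MT1E, MT1F, MT1G and MT1M were 23.5-fold, 7.45-fold, 6.02-fold and 3.19-fold lower, as was the zinc exporter SLC30A1 (6.35-fold); MTF1 itself differed least (−0.39). The family's genes are near copies of each other, so reads may have been shared among them. Searches of 12 matched NODAL pathway promoters for the FOXH1 motif AATNCACA and of 18 matched cholesterol gene promoters for the sterol element TCACNCCAC gave 2 and 1 with a match, against 1.31% and 0.887% of all promoters. The FOXH1 matches were in CER1 and GDF3, which went opposite ways (log2 fold changes 1.56 and −0.49). The gene with the sterol match was lower in C75 (−0.24).

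Genes of endoplasmic reticulum chaperones and the proteasome were mostly higher in C75 and those of cytosolic ribosomal proteins mostly lower. Over all genes tested 39.6% were called higher and 40.1% lower. Of 20 endoplasmic reticulum chaperone and sensor genes 14 were higher, 2 lower and 4 not called. CRELD2 was at 92.2, 103 and 107 CPM in C75 and 36.7, 34.5 and 34.3 CPM in ETO, and HSPA5, the chaperone BiP, at 1702, 1766 and 1708 CPM against 1046, 1056 and 1062 CPM. The sensor gene ERN1 was lower (−0.37) and XBP1 was not called (95% interval −0.11 to 0.03). Heat shock and chaperonin genes went both ways, 11 of 19 higher, 7 lower and 1 not called (median 0.17). HSPA1A was 3.05-fold higher (its near copy HSPA1B may share reads), but the mitochondrial chaperonins HSPD1 and HSPE1 were lower (1.96-fold and 1.81-fold). Of 46 tested genes with the proteasome prefix PSM, 40 were higher by a log2 fold change of at most 1.14, 4 lower and 2 not called (median 0.43); the prefix also takes in PSMC3IP, which is no proteasome subunit. PSMB8, an immunoproteasome subunit that was named after its values were seen, was at 0.0371 CPM in C75 and 2.56 CPM in ETO, with 20.6% of its exonic bases overlapping genes on the other strand. Of 83 ribosomal protein genes 72 were lower, 4 higher and 7 not called, with a median of −0.32, whereas mitochondrial ribosomal proteins were higher for 41 of 77 and lower for 17. MRPL22 was 3.57-fold higher.

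The 13 mitochondrial-encoded genes were lower for 11, higher for MT-CO3 (0.14) and not called for MT-ND3 (95% interval −0.04 to 0.07). The lower ones ranged from MT-ND4L at −0.73 and MT-ND4 at −0.73 to MT-ND2 at −0.07. The call of MT-ND2 was lost in 6 of 13 alternatives. MT-ND4 was at 3676, 3462 and 3899 CPM in C75 and 6086, 6164 and 5847 CPM in ETO. Of 45 tested genes with the complex I prefix NDUF, 21 were higher and 13 lower (median 0.14). NRF2 antioxidant genes had 12 higher and 6 lower of 21, with NQO1 1.47-fold and GPX2 6.63-fold higher, SLC7A11, the cystine carrier, 4.04-fold lower and TKT 2.48-fold lower.

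Proliferation genes were lower in C75. Of 30 cell cycle and replication genes 26 were lower (beside 40.1% of all genes tested), 3 higher and 1 not called, with a median of −0.61. At least 2-fold lower were 8 of the 30, beside 14.9% of all genes. BUB1B, of the spindle checkpoint, was at 51.9, 46.8 and 45.9 CPM in C75 and 148, 151 and 145 CPM in ETO, and CENPF 2.91-fold lower. Cyclin genes CCND1 and CCND2 were 2.94-fold and 2.83-fold lower, whereas the kinases CDK6 and CDK4 and the cyclin CCNE1 were higher (0.70, 0.26 and 0.35). The helicase genes MCM5 and MCM6 were close to 0 (−0.09 and −0.08), and their calls were lost in 2 and 4 of 13 alternatives. p53 targets were lower for 11 of 17 and higher for 5: CDKN1A, the cell cycle inhibitor p21, was at 3.38, 2.42 and 2.80 CPM against 29.5, 31.2 and 29.4 CPM, whereas BTG2 was 2.69-fold higher and GADD45A 2.12-fold. Among DNA and histone modifiers TET1 was 2.94-fold lower and KDM6B, a demethylase of repressive histone marks, 2.49-fold higher, and HDAC2 was not called (95% interval −0.05 to 0.07). Of 22 histone genes tested, 7 were higher, none lower and 15 not called. The share called higher was 31.8%, beside 39.6% of all genes called higher and 79.8% called in either direction. HIST1H1C led the called ones, at 50.3, 50.1 and 49.0 CPM against 13.8, 13.6 and 12.1 CPM. Whether the libraries were selected for polyadenylated RNA is not given in the sources used here.

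Adhesion and matrix genes went both ways, 9 higher and 11 lower of 23 adhesion genes and 14 higher and 15 lower of 31 matrix genes. CDH1, the epithelial cadherin, was at 94.0, 92.4 and 97.1 CPM in C75 and 401, 415 and 394 CPM in ETO, while CDH2, which endoderm gains, was at 1306, 1341 and 1314 CPM against 648, 657 and 650.3 CPM. CDH11 had 24 counts in C75 and 1741 in ETO, and CDH20 was 12.9-fold higher in C75. Keratins KRT19, KRT8 and KRT18 were 2.55-fold, 2.13-fold and 1.41-fold higher, and VIM, the mesenchymal filament, 2.64-fold lower. Among collagens, the network chains of basement membrane COL4A1, COL4A2, COL4A5 and COL4A6 were higher, COL4A6 at 225, 219 and 214 CPM against 63.6, 72.3 and 69.8 CPM and COL4A1 2.05-fold. Fibril and fibril-associated chains COL11A1 and COL5A2 were lower (54.0-fold and 2.55-fold), and COL12A1 had 9 counts in C75 and 1077 in ETO. Laminin chains differed by gene: LAMC1 was 2.72-fold lower, and LAMA1 and LAMB1 were not called (95% intervals −0.11 to 0.02 and −0.04 to 0.09). Of integrins, ITGA2 was 36.9-fold lower and ITGA4 11.4-fold higher. The guidance gene SEMA6A was at 35.3, 32.3 and 33.5 CPM in C75 and 629, 629 and 637 CPM in ETO.

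Other families, taken by the start of their symbols, mostly had both directions. Of 262 solute carriers tested 119 were higher and 98 lower, with the largest differences in SLC6A15, SLC1A3 and SLC16A12, which were 42.7-fold, 23.5-fold and 22.5-fold lower. Zinc finger genes named ZNF were called for 314 of 469 (67.0%), beside 79.8% of all genes, with a median absolute log2 fold change of 0.35. Protocadherins were lower for 37 of 56 and higher for 6, with PCDHAC2 11.6-fold lower and PCDH7 3.03-fold higher. Potassium channel genes were lower for 27 of 57 and higher for 11, although the 3 largest differences above 5 CPM were all higher, KCNK12 at 366, 341 and 390.1 CPM against 70.4, 65.2 and 80.7 CPM. HOX genes were near silent, with 8 of 39 tested; HOXD13 alone exceeded 5 CPM among the called ones and was 2.46-fold higher in C75.

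Common reference genes for quantitative PCR were not level between the inhibitors. All 18 passed the test, beside 79.8% of all genes tested and 88.9% of those at 100 CPM or more. Of the 18, 11 were lower and 7 higher in C75, with absolute differences up to 4.24-fold. At least 2-fold differences were called for 3 members, all lower, beside 23.5% of all genes in either direction. HPRT1 was at 5.58, 5.94 and 4.94 CPM in C75 and 20.9, 23.6 and 24.8 CPM in ETO, and B2M and TFRC were 2.65-fold and 2.198-fold lower. ACTB was at 9274, 8770.3 and 9952 CPM against 6736, 6363 and 6611 CPM, 1.41-fold higher in C75, and YWHAZ 1.501-fold higher. Small differences were those of GAPDH (−0.08, 95% interval −0.13 to −0.03), TBP (0.16, 0.03 to 0.29) and RPLP0 (−0.20, −0.25 to −0.15). The call of TBP was lost in 4 of 13 alternatives. These values are relative to the TMM scaling of the libraries, and RNA per cell was not measured.

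**Figure D5:**
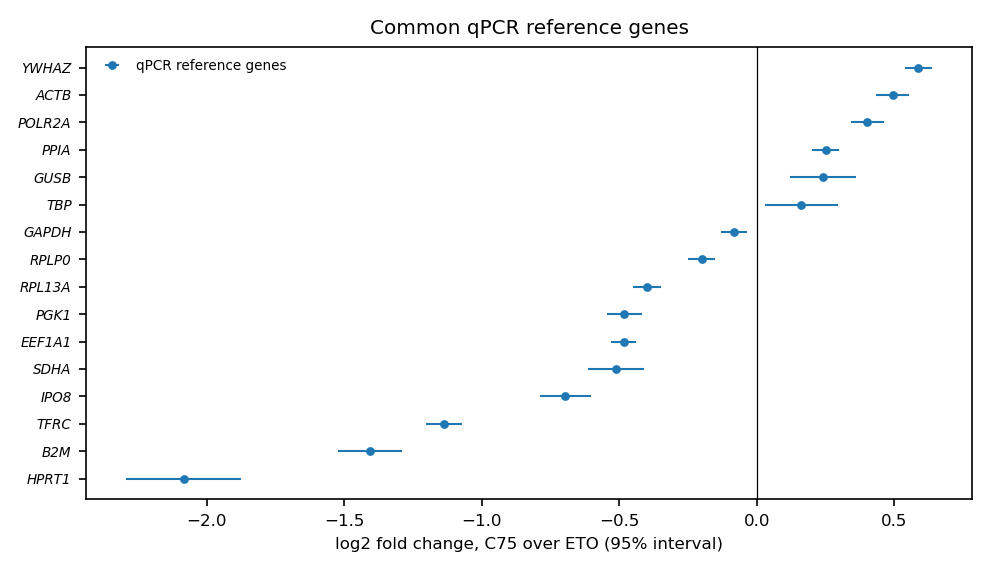
log2 fold change, C75 over ETO, with its 95% interval for 16 of the 18 reference genes. HPRT1, B2M and TFRC lie below −1, YWHAZ is the highest of those shown at 0.59, and GAPDH is the closest to 0.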

How the data were processed

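RNA sequencing of 9 libraries (3 per group) was deposited by the authors as one table that holds raw counts for each gene symbol and its length in bases. HISAT2 2.1.0, featureCounts 1.6.4 and the builds GRCh38 and hg38 are named in the submitters' processing notes; the sources used here do not give the strand setting, the annotation or the treatment of reads with several hits. All 19907 symbols are in GENCODE 29, and 99.84% of lengths equal its merged exons, whose coordinates on GRCh38 are printed.

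Counts of the 6 C75 and ETO libraries were filtered with filterByExpr (14033 genes), scaled by TMM and tested with edgeR 4.0.16 (quasi-likelihood, group as the only term, R 4.3.3). Adjusted p is Benjamini-Hochberg over all tested genes, with a threshold of 0.05. Log2 fold changes are C75 over ETO. SE is the absolute log2 fold change divided by the square root of the quasi-likelihood F statistic. The 95% intervals are t intervals built from this SE and are approximate. CPM levels use TMM factors of all 9 libraries. TPM uses the deposited lengths. Ratios of low counts have exact 95% intervals, and a count of 0 is set to 3 counts over the group as a floor; these cover counting error only. No 2 libraries of one group agreed within counting noise (chi-square per degree of freedom 1.79 to 3.19), so none was taken for a duplicate deposit. Promoters and their motifs come from RefSeq (GRCh38.p14). Alternatives were 2 other scalings, 2 filters, DESeq2 1.42.0, a fit of 9 libraries, the replicate block and each library left out.

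The members and the 40 gene lists and 22 symbol families were chosen with earlier results of these data known. Named genes were 12 anchors, the 15 largest differences in each direction at 5 CPM or more, up to 4 members of each list by size at 1 CPM or more and up to 2 that went against it, up to 2 with an interval within −0.25 to 0.25, every member of 3 lists, and up to 3 of each family at 5 CPM or more. The ranking of the 15 largest took called genes without overlap between the groups. It left out symbols with a dot, LOC, LINC, -AS or RP11, and XIST and Y-linked genes. A further 71 tested genes, and those too low to test, were chosen for their role after values were seen. Some genes of these lists count in the totals and are not reported here by name.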

Additional observations from a re-analysis of the deposited data

How the results depend on the processing

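The counts of called genes stayed within 1.5 times of the reported ones in each alternative, with 5049 to 5791 genes higher in C75 and 5346 to 6077 lower, and with 1080 to 1400 and 1867 to 2507 at least 2-fold. Every call shared with the reported test kept its sign. Upper-quartile scaling gave the lowest share of higher calls (45.4% against 49.7%) and moved the median of all genes to −0.060. Under that scaling IDI1, LAMA1, XBP1 and ENO1 passed the test (log2 fold changes −0.081, −0.10, −0.10 and −0.090). Of 409 genes followed, 385 kept their call in all 13 alternatives; the other 24 had small differences, and 4 of the medians of lists and families changed sign in at least 1 alternative. The difference in mitochondrial share ranged from −1.01 to −0.859 percentage points with each library left out. Deviations of C75 and ETO libraries with the same number correlated at −0.0268, 0.309 and 0.206, and those with different numbers at −0.347 to 0.199. Deviations from the mean of only 3 libraries depend on each other, so these values cannot decide whether replicate numbers pair the libraries. In the fit with a replicate block 11246 genes were called, 5589 higher and 5657 lower, and 11157 calls (99.64%) were shared with the fit without it. Depth limits the genes near the floor: 86 tested genes had at most 3 counts in C75 and 8 in ETO. For these, a fitted fold change gives no size.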
